A study of Homo sapiens with 39 samples.

Results

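A set of 8 genes of cell death control was followed through 5 changes of TRIM37 dose. The set holds BCL2, BCL2L1, MCL1, BCL2L11, BID, BAK1, BMF and AIFM2, out of 23710 genes listed. They are BCL2 family genes and 1 gene of the AIF family that lie outside the p53 target list used for the series. The 8 were chosen by name with the fold changes and q values of these same comparisons in view, so those values describe the 8 genes and do not test them. The rule for choosing them also speaks of caspases, but its list names 0 caspases. Caspases are therefore given with the other genes of the pathway.

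TRIM37 is a ubiquitin ligase, and the study asked how its dose alters gene expression in an untransformed and a cancer line. The untransformed line was hTERT RPE1, retinal pigment epithelial cells immortalised with telomerase, with 9 wild type libraries, labelled as 3 sets of 3, and 9 libraries of a TRIM37 knockout for which no clone is named. The cancer line was CHP-134, a neuroblastoma line, with 3 wild type libraries and 3 of each of clone 1 and clone 2, both labelled as partial TRIM37 knockouts. Gain of TRIM37 was studied in clones 4 and 5 of RPE1 cells with TetOn-TRIM37, a doxycycline-driven transgene, each with 3 untreated libraries and 3 libraries given doxycycline at 1 µM for 24 h. No group received doxycycline without the transgene, so an effect of the drug and an effect of TRIM37 cannot be told apart. Nothing says whether libraries of a group came from separate cultures, so the q values may measure technical spread alone.

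Proteins of the BCL2 family meet at the outer mitochondrial membrane. Pro-survival members such as BCL2, BCL2L1 and MCL1 hold the pore-forming effectors BAX and BAK1 in check, and BH3-only members such as BCL2L11, BID and BMF bind the pro-survival members or the effectors and so favour opening of the pore. Open pores release cytochrome c, which with APAF1 activates caspase 9 and then the executioner caspases. AIFM2 belongs to the AIF family by sequence and is best known as ferroptosis suppressor protein 1, an oxidoreductase that keeps coenzyme Q reduced and so limits lipid peroxidation.

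The data are the authors' 5 deposited tables, 1 for each altered group against its control, with a mean count, a log2 fold change, the standard error (SE) of that change and a q value per gene. No library values were analysed here and depth per library is unknown. Where a level is given for a group it is the level implied by the mean count and the fold change. A gene was counted as risen, fallen or changed where the authors' q, an adjusted p from DESeq2, was under 0.05, and as usable where its Status was OK and not Low or Outlier. All 8 genes were usable in all 5 tables. TRIM37 itself had a log2 fold change of -1.95 in the RPE1 knockout, -1.66 in CHP-134 clone 1 and -1.75 in clone 2, against 3.19 in TetOn clone 4 and 2.64 in TetOn clone 5, by the authors' deposited tables. Its sign set the direction of each table, which the headers do not give. Of 8 adrenergic neuroblastoma markers, 6 had a mean count above 10 in the CHP-134 tables (TH and DBH did not) and 1 did in the RPE1 tables, where PHOX2A and DBH were at 0. Of 8 retinal pigment epithelium markers, 3 to 4 were above 10 in the RPE1 tables, KRT8, KRT18 and MITF among them, while RPE65, RLBP1, BEST1 and TYR were at or under 10. The RPE1 libraries thus held little or none of the visual cycle markers RPE65 and RLBP1 and of the pigment enzyme TYR.

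In the RPE1 knockout, 6 of the 8 genes changed by the authors' deposited table, BCL2, BCL2L1 and BCL2L11 upward and MCL1, BMF and AIFM2 downward. The share of all 13002 usable genes that changed there was 53.6%, with 26.6% up and 26.9% down, so change as such was common among all genes. In CHP-134 clone 1, BAK1 and AIFM2 fell and 0 of the 8 rose, where 18.7% of usable genes changed, 9.6% up and 9.07% down. In CHP-134 clone 2, BCL2L1, BCL2L11 and BID rose and MCL1 and AIFM2 fell, where 46.2% of usable genes changed, 22% up and 24.2% down. The authors' DESeq2 q called 0 of the 8 after induction in TetOn clone 4, where 1.95% of usable genes were called, and 0 of the 8 in clone 5, where 2.97% were. At an unadjusted p under 0.05 computed from the deposited log2 fold change and SE, 1 of the 8 was called in TetOn clone 4, AIFM2, and 1 in clone 5, BCL2L1, against 10.1% and 10.7% of usable genes.

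The median absolute log2 fold change of the 8 was 0.135 in the RPE1 knockout, against 0.156 over all usable genes of the authors' deposited table. It was 0.0977 against 0.113 in CHP-134 clone 1 and 0.163 against 0.197 in clone 2. The median of the 8 was thus below that of all genes in these 3 tables, and BMF, AIFM2 and BCL2L11 held the larger values. AIFM2 was the member called in all 3 comparisons with lowered TRIM37. The CHP-134 comparisons share their wild type libraries, so a value held by both clones is not independent evidence. With the SEs widened to the spread that most genes of each table show, BMF and AIFM2 in the knockout were the 2 calls that were kept, and 0 of the 8 was called in either CHP-134 clone. With the median of each chromosome removed, BCL2 and MCL1 in the knockout, BAK1 in clone 1 and BCL2L1, MCL1 and BID in clone 2 lost their call. The value of BCL2 moved little, from 0.177 to 0.172, and its deposited q of 0.0474 was already close to the threshold.

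**Figure D1:**
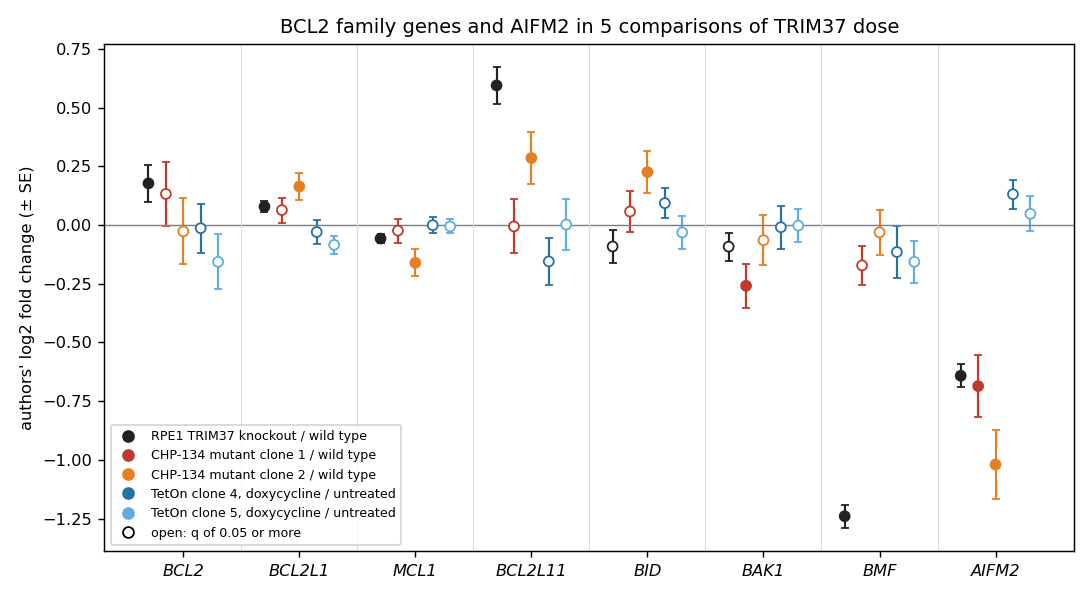
Authors' log2 fold change (points) with its SE (bars) for the 8 genes in the 5 comparisons, filled where q was under 0.05. AIFM2 lies below 0 in the 3 comparisons with lowered TRIM37, at -0.64, -0.69 and -1.02, while BMF at -1.24 and BCL2L11 at 0.59 stand away from 0 mainly in the RPE1 knockout.

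Among the pro-survival genes, BCL2L1, which encodes BCL-xL, had implied levels of 6300 in RPE1 wild type and 6660 in the knockout. The knockout value is a log2 fold change of 0.08 (SE 0.0234) with q = 0.00213, or 1.06-fold, by the authors' deposited table. In CHP-134 the implied levels were 1920 and 2000 for clone 1 and 2040 and 2280 for clone 2. These are log2 fold changes of 0.06 (SE 0.0532, q = 0.451) and 0.16 (SE 0.0565, q = 0.0105) in the authors' deposited tables. BCL2L1 therefore rose in the knockout and in clone 2, by 5.56% and 12%, and its interval in clone 1, 0.972-fold to 1.12-fold at 95%, holds both no change and the rise of the knockout. After induction BCL2L1 had log2 fold changes of -0.03 (SE 0.0501, q = 0.938) in TetOn clone 4 and -0.08 (SE 0.0373, q = 0.321) in clone 5, by the authors' deposited tables.

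MCL1, a short-lived pro-survival protein whose transcript was among the more abundant of the 8, fell in the same 2 comparisons. Its implied level went from 9870 to 9490 in the RPE1 knockout, a log2 fold change of -0.06 (SE 0.0202, q = 0.00933) in the authors' deposited table. In CHP-134 clone 2 it went from 8670 to 7750, at -0.16 (SE 0.0583, q = 0.0155), and in clone 1 from 8150 to 8010, at -0.02 (SE 0.0512, q = 0.799), by the authors' deposited tables. The called values of MCL1 were thus changes of -3.93% and -10.6%. Induction of TRIM37 left the implied level at 8470 before and after in TetOn clone 4 and at 7570 and 7530 in clone 5. The 95% intervals of the fold, 0.953 to 1.05 and 0.957 to 1.04, exclude a change of the size called in CHP-134 clone 2. Both intervals hold the 0.961-fold of the RPE1 knockout, so a change of that size is not excluded.

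BCL2, the founding member of the family, was the least expressed of the 8 per kilobase in all 5 tables. Its implied level was 275 in RPE1 wild type and 311 in the knockout, a log2 fold change of 0.18 (SE 0.0789) whose q of 0.0474 in the authors' deposited table lies close to the threshold. The CHP-134 clones had 0.13 (SE 0.138, q = 0.563) and -0.03 (SE 0.141, q = 0.892), and the TetOn clones -0.01 and -0.16 (q = 0.748 in clone 5), by the authors' deposited tables. The 95% intervals of BCL2 in CHP-134, 0.908-fold to 1.32-fold and 0.81-fold to 1.19-fold, do not settle a direction. Of the 3 further pro-survival genes of the list, BCL2L2 was the 1 that was usable, and it fell in the RPE1 knockout with a log2 fold change of -0.36 (SE 0.0465, q = 4.99e-14) by the authors' deposited table.

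BAK1, a pore-forming effector resident on mitochondria, fell in CHP-134 clone 1 from an implied level of 583 to 487. That is a log2 fold change of -0.26 (SE 0.0949, q = 0.0372), or 0.836-fold with a 95% interval of 0.735 to 0.951, by the authors' deposited table. In clone 2 BAK1 had implied levels of 621 and 593, at -0.07 (SE 0.106, q = 0.64), and in the RPE1 knockout 645 and 605, at -0.09 (SE 0.0597, q = 0.187), by the authors' deposited tables. Its values in TetOn clones 4 and 5 were -0.00964 and -0.00273, both with q above 0.99. BAX, the partner effector, rose in the knockout and in clone 2 and was not called in clone 1. Its log2 fold changes in the authors' deposited tables were 0.38 (q = 1.98e-30) in the knockout, 0.28 (q = 0.0848) in clone 1 and 0.73 (q = 3.24e-08) in clone 2. In none of the comparisons were both BAK1 and BAX called. The ovary-enriched effector BOK fell in the knockout at -0.58 (SE 0.0366) and was not called in CHP-134, by the authors' deposited tables.

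BCL2L11, which encodes the BH3-only protein BIM, rose in the RPE1 knockout from an implied level of 330 to 498. That is 0.59 on the log2 scale (SE 0.0784, q = 2.42e-13), or 1.51-fold with a 95% interval of 1.36 to 1.68, by the authors' deposited table. In CHP-134 it stood at 742 and 738 for clone 1, a log2 fold change of -0.01 (SE 0.115, q = 0.98), and at 791 and 963 for clone 2, at 0.29 (SE 0.109, q = 0.0228), by the authors' deposited tables. The clone 2 rise was 1.22-fold with an interval of 1.05 to 1.41, and the clone 1 interval of 0.852 to 1.16 overlaps it. After induction the implied levels were 298 and 268 in TetOn clone 4 and 167 and 167 in clone 5, with q of 0.686 and 0.998 in the authors' deposited tables. The difference between the TetOn clones, 0.157 for clone 5 minus clone 4, had an SE of 0.148.

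BCL2L11 is a textbook target of FOXO factors, so its promoter was read for the FOXO letters GTAAACA. In RefSeq on GRCh38.p14 the 250 bases before its start lie at chr2:111120664-111120913 on the plus strand and hold 1 match, in capitals below, from 223 to 217 bases before the start. Matches on either strand stand in 3.42% of the 35116 RefSeq promoter windows of 300 bases. The match is a description of the letters and says nothing of binding in these cells.
BCL2L11: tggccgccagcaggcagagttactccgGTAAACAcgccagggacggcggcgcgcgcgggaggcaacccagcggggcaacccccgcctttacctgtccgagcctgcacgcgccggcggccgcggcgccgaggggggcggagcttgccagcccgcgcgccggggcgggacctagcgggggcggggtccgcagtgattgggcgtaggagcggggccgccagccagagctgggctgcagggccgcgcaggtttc
The same window holds 3 matches to the Sp1 letters GGGCGG, not put in capitals, which 45% of windows hold at least once.

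BMF, a BH3-only protein known for its binding to the dynein light chain and its link to detachment from the matrix, had the largest fold change of the 8. Its implied level fell from 1770 in RPE1 wild type to 750 in the knockout. The log2 fold change was -1.24 (SE 0.0496), or 0.423-fold with a 95% interval of 0.396 to 0.453, and the q is printed as 0 in the authors' deposited table, which means below what the file could hold. In CHP-134 the implied levels were 439 and 389 for clone 1 and 466 and 456 for clone 2, with log2 fold changes of -0.17 (SE 0.0836, q = 0.141) and -0.03 (SE 0.0954, q = 0.81) in the authors' deposited tables. The CHP-134 intervals, 0.792-fold to 0.994-fold and 0.859-fold to 1.11-fold, do not reach the 0.423-fold of the knockout. BMF in CHP-134 thus did not show a fall of the size seen in RPE1, and the 2 lines differ in much besides TRIM37.

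BMF was not called after induction of TRIM37. The implied level was 401 untreated and 371 induced in TetOn clone 4, at -0.12 (SE 0.112, q = 0.853), and 469 and 421 in clone 5, at -0.16 (SE 0.0896, q = 0.573), by the authors' deposited tables. The 95% intervals of the fold were 0.793 to 1.08 and 0.794 to 1.01. The untreated TetOn clones were themselves far under RPE1 wild type. After the median ratio of all genes between the tables was removed, untreated clone 4 stood at 0.317 of RPE1 wild type for BMF, and 1.68% of genes had a lower ratio. Untreated clone 5 stood at 0.414, with 2% of genes lower. These tables were normalised separately and the ratio has no replicate error, so it is a description. BMF thus differed among RPE1 groups that carry no knockout label by as much as between the knockout and its wild type, and the part of this variation in the knockout value was not tested. AIFM2 in the same setting stood at 1.12 and 1.24, and BCL2L11 at 1.27 and 0.79.

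The BMF promoter is printed because BMF held the largest change. RefSeq gives it 2 starts, and the 250 bases before start 1 lie at chr15:40108880-40109129 on the minus strand of GRCh38.p14. They hold 1 match to the letters TGACG of a CRE half-site, from 57 to 53 bases before the start, which stand in 24.6% of windows on either strand, and 1 match to GGGCGG, from 45 to 40 bases before it. They hold no match to the FOXO letters, to the AP-1 letters TGANTCA, to the TEAD letters GGAATG or to the p53 half-site, which are the motifs set in capitals, so the sequence has none.
BMF: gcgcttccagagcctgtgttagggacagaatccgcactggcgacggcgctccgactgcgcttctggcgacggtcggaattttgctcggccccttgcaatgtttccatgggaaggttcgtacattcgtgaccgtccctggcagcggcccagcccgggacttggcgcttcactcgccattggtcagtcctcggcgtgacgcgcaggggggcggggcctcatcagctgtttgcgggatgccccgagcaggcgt
No match says only that these letters are not in this window.

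BID, which caspase 8 cleaves to link death receptors to mitochondria, rose in CHP-134 clone 2 from an implied level of 1770 to 2070. The log2 fold change was 0.225 (SE 0.0895, q = 0.0284) in the authors' deposited table. BID lies on chromosome 22, whose usable genes had a median log2 fold change of 0.149 in that table, and with the median of each chromosome removed BID stood at 0.0755 and was not called. Its values in the other comparisons were 0.06 (SE 0.0878) in clone 1, -0.09 (SE 0.069) in the RPE1 knockout, 0.09 (SE 0.0636) in TetOn clone 4 and -0.03 in TetOn clone 5, none called in the authors' deposited tables. The 95% intervals of the fold were 0.855 to 1.03 in the knockout and 1.03 to 1.32 in clone 2. With the median of each chromosome removed, the knockout stood at -0.0614 beside the 0.0755 of clone 2, and the difference was not tested.

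Of the 5 further BH3-only genes of the list, BBC3, which encodes PUMA, had the largest values. The RPE1 knockout had a log2 fold change of 0.46 (SE 0.0944) for BBC3, CHP-134 clone 1 had 1.26 (SE 0.235) and clone 2 had 2.12 (SE 0.221), with q of 3.96e-06, 3.71e-06 and 4.22e-20 in the authors' deposited tables. PMAIP1, which encodes NOXA, the BH3-only protein best known for binding MCL1, rose in the knockout at 0.185 (q = 0.000247) and stood at 0.01 and -0.045 in the CHP-134 clones by the authors' deposited tables. BAD rose in the knockout at 0.24 (q = 1.89e-06) and had the Status Outlier in both CHP-134 tables, and BIK and HRK were Low. The BH3-only list held 4 rises and 1 fall among 6 usable genes in the knockout, 1 rise among 5 in clone 1 and 3 rises among 5 in clone 2, with 0 called of 6 in each TetOn clone. Over all usable genes 53.6%, 18.7% and 46.2% were called in the knockout, clone 1 and clone 2, and 1.95% and 2.97% in TetOn clones 4 and 5. The median log2 fold change of the list was 0.213, 0.00793 and 0.225 in the knockout, clone 1 and clone 2, with no test against other genes.

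**Figure D2:**
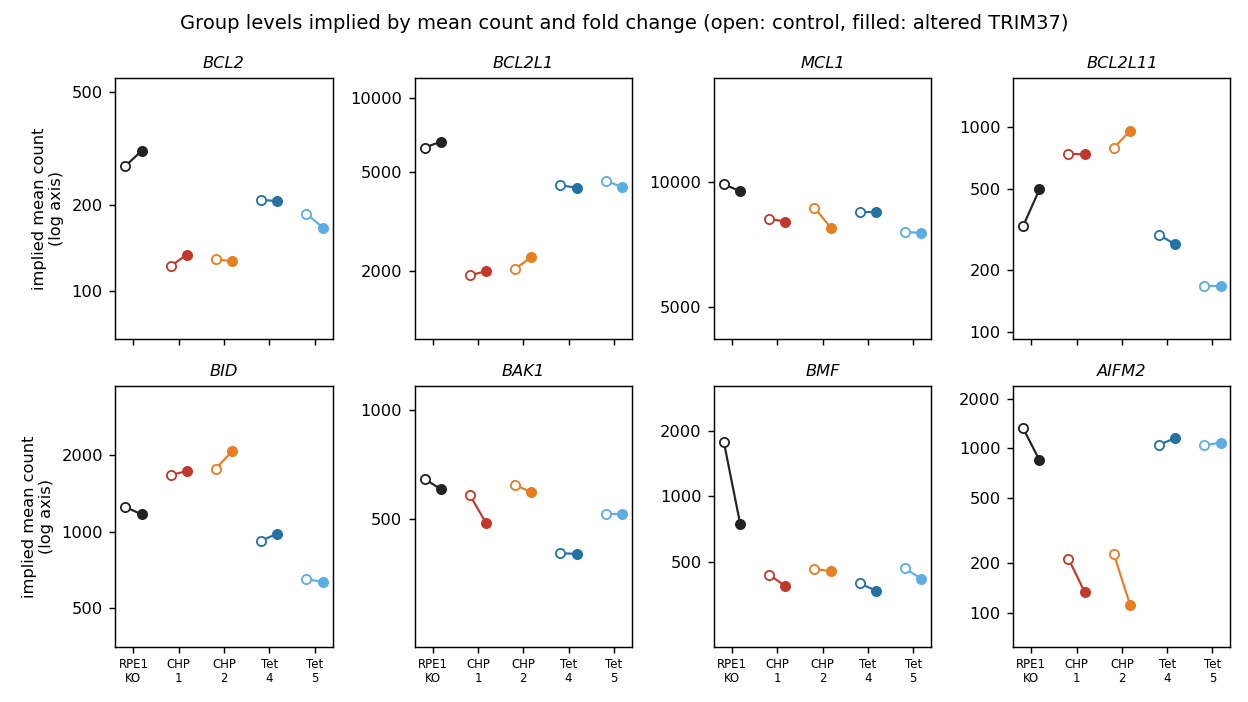
Implied mean counts (log axis) of the 8 genes in the control group (open) and the altered group (filled) of each comparison, without error bars because no library values were analysed. AIFM2 drops from 1320 to 844, from 213 to 133 and from 228 to 112 with lowered TRIM37, and BMF sits between 371 and 469 in both TetOn clones whether untreated or induced.

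AIFM2 was the member that fell in every comparison with lowered TRIM37. In the RPE1 knockout its implied level went from 1320 to 844, a log2 fold change of -0.64 (SE 0.0486, q = 1.14e-38) in the authors' deposited table. In CHP-134 it went from 213 to 133 in clone 1, at -0.69 (SE 0.133, q = 9.45e-06), and from 228 to 112 in clone 2, at -1.02 (SE 0.145, q = 4.08e-11), by the authors' deposited tables. These are changes of -35.9%, -37.8% and -50.7%, and the 95% intervals of the fold were 0.6 to 0.685, 0.519 to 0.745 and 0.405 to 0.6. Whether a fall reflects fewer cells that express the gene or less RNA per cell cannot be told apart in these bulk samples. The control level of AIFM2 was 5.64 times as high in RPE1 as in CHP-134 wild type after the median ratio of all genes was removed, so falls of like size took place from unlike levels.

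Induction moved AIFM2 little. The implied level was 1050 untreated and 1150 induced in TetOn clone 4, a log2 fold change of 0.13 (SE 0.0621, q = 0.431), and 1040 and 1080 in clone 5, at 0.05 (SE 0.0749, q = 0.931), by the authors' deposited tables. Both values lie above 0, opposite to the 3 comparisons with lowered TRIM37, but neither passed the threshold. The 95% intervals of the fold, 1.01 to 1.19 and 0.933 to 1.14, exclude a rise as large as the falls in the knockout comparisons. TRIM37 itself rose 9.13-fold and 6.23-fold in these clones.

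The promoter of AIFM2 is shown because its transcript fell in all 3 comparisons with lowered TRIM37. The 250 bases before its RefSeq start lie at chr10:70132826-70133075 on the minus strand of GRCh38.p14. They hold 1 match to the AP-1 letters TGANTCA, in capitals, from 20 to 14 bases before the start, and 7.71% of windows hold these letters on either strand. It matches on both strands, and a match to GGGCGG on the opposite strand follows from 9 to 4 bases before the start.
AIFM2: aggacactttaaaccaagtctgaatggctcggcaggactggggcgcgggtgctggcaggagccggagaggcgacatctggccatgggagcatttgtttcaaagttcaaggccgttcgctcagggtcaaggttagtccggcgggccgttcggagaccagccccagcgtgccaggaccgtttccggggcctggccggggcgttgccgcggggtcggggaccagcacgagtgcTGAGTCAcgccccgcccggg
No match to the FOXO, TEAD or p53 half-site letters was found in the AIFM2 window, and 7 of the 8 genes had an entry in the promoter table, all but MCL1.

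The fall of AIFM2 was set beside its neighbours on chromosome 10. The neighbours were the 20 nearest usable genes whose symbol was matched in RefSeq, 10 on each side. Of these 20, 2 had a lower log2 fold change than AIFM2 in the RPE1 knockout, and 0 did in CHP-134 clone 1 or clone 2. The medians of these neighbours were -0.175, -0.0628 and 0.0345, and those of the whole chromosome -0.0813, -0.0278 and -0.0577. AIFM2 fell well beyond both in each comparison. An exon of AIFM2 overlaps H2AFY2, a gene for a macroH2A histone on the opposite strand, and reads of both may have been shared, since no source used here gives the strand setting. H2AFY2 had log2 fold changes of 0.32, -0.04 and 0.12 in the knockout, clone 1 and clone 2 by the authors' deposited tables, called as rises in the first and the last. It was not among the 20 neighbours, since its symbol was not matched. The exons of BCL2 and BID overlap no other gene in GENCODE 29, while those of BCL2L1, MCL1, BCL2L11, BAK1 and BMF each overlap 1. For BCL2L11 it is MIR4435-2HG, for BMF it is BMF-AS1 and for BAK1 it is the Low gene GGNBP1, all on the opposite strand. Reads may have been shared for these genes as well, which was not tested.

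**Figure D3:**
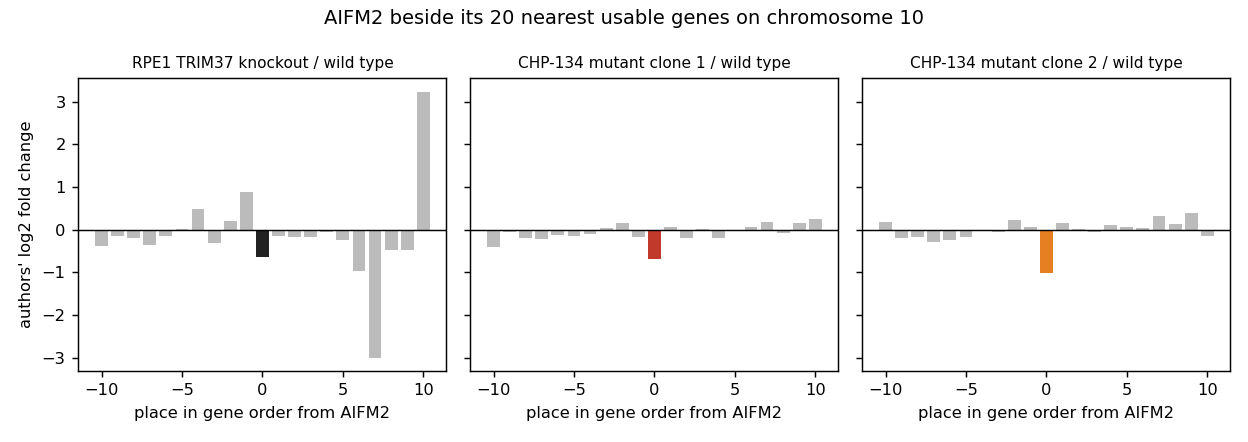
Authors' log2 fold change of AIFM2 (coloured) and of the 10 nearest usable genes with a RefSeq match on each side (grey) by place in gene order on chromosome 10. AIFM2 is the lowest bar in both CHP-134 clones, and 2 of its 20 neighbours are lower in the RPE1 knockout.

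Of the other genes of the AIF and ferroptosis list, GPX4, the peroxidase that detoxifies lipid peroxides in parallel to AIFM2, rose in all 3 comparisons with lowered TRIM37. GPX4 stood at log2 fold changes of 0.28 (SE 0.0463), 0.44 (SE 0.0945) and 0.64 (SE 0.0902) in the knockout, clone 1 and clone 2, with q of 5.22e-09, 8.12e-05 and 2.47e-11 in the authors' deposited tables. AIFM1, the apoptosis-inducing factor itself, fell in the CHP-134 clones at -0.18 (q = 0.0242) and -0.21 (q = 0.00344) and stood at 0.00344 (q = 0.944) in the knockout, by the authors' deposited tables. ACSL4, which loads membranes with oxidisable fatty acids, fell at -0.27 (q = 3.97e-18) in the knockout and at -0.355 (q = 0.0077) in clone 2 and was an Outlier in clone 1, by the authors' deposited tables. SLC7A11, the cystine importer, rose in the knockout at 0.14 with q = 0.0494, and GCH1, the first enzyme of tetrahydrobiopterin synthesis, fell there at -0.51 with q = 0.000219, by the authors' deposited table. The list of 10, AIFM2 included, held 4 rises and 3 falls among 9 usable genes in the knockout, 1 and 2 among 7 in clone 1 and 3 and 3 among 8 in clone 2, beside called shares of 53.6%, 18.7% and 46.2% over all usable genes.

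Among the caspases, CASP2 fell in CHP-134 clone 1 at -0.18 (SE 0.0514, q = 0.00418) and stood at -0.03 (q = 0.597) in clone 2 and 0.06 (q = 0.13) in the RPE1 knockout, by the authors' deposited tables. CASP4, an inflammatory caspase, rose in the knockout at 0.32 (SE 0.0452, q = 1.18e-11) by the authors' deposited table. CASP6, an executioner caspase, and CASP9, the caspase of the apoptosome, were usable in all 5 tables and called in 0 of them. CASP8, the initiator at death receptors, had a mean count of 458 in the RPE1 knockout table and 0.16 and 0.17 in the CHP-134 tables, where it was Low. Silencing of CASP8 is a known feature of neuroblastoma lines. CASP1 and CASP4 were at 0 in both CHP-134 tables. The authors' DESeq2 q called 0 of 8 usable caspases after induction in TetOn clone 4 and 0 of 9 in clone 5. Over all usable genes 1.95% and 2.97% were called there.

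Of the apoptosome and inhibitor list, APAF1, the scaffold that cytochrome c activates, and DIABLO, which relieves inhibition of caspases, rose in the RPE1 knockout at 0.43 (SE 0.0357) and 0.55 (SE 0.0409) by the authors' deposited table. Both lie on chromosome 12, whose 628 usable genes had a median of 0.504 there against -0.0123 elsewhere. The other list genes on that chromosome, TNFRSF1A and LPCAT3, rose as well, at 0.805 and 0.546, by the authors' deposited table, so all 4 stood near or above the median of their chromosome. In the CHP-134 clones APAF1 and DIABLO were not called, with chromosome 12 medians of -0.017 and -0.0423. BIRC3, an inhibitor of apoptosis protein induced by NF-kappaB, fell in the knockout at -1.13 (SE 0.126, q = 3.74e-18), and the mitochondrial protease HTRA2 fell at -0.49 (q = 1.13e-26), by the authors' deposited table. In clone 2, CYCS, which encodes cytochrome c, XIAP and BIRC2 fell at -0.29, -0.24 and -0.31, and BIRC6 rose at 0.17 (q = 0.013), by the authors' deposited table. CYCS rose in clone 1 at 0.0967 (q = 0.00732), opposite to its fall in clone 2, and BIRC2 fell there at -0.18 (q = 0.00162), by the authors' deposited table. The list held 2 rises and 3 falls among 8 usable genes in the knockout, 1 and 1 among 8 in clone 1 and 1 and 3 among 8 in clone 2, beside called shares over all usable genes of 53.6%, 18.7% and 46.2%.

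Of the death receptor list, FAS rose at 0.12 (q = 0.0232), 0.80 (q = 0.00408) and 0.89 (q = 0.0024) and TNFRSF10B, a TRAIL receptor, at 0.315, 0.36 and 0.545 in the knockout, clone 1 and clone 2, by the authors' deposited tables. Targets of p53 were not examined as a set here. CFLAR, which blocks caspase 8 at these receptors, fell at -0.43 (q = 1.37e-13) in the knockout and -0.53 (q = 1.18e-06) in clone 2 and stood at 0.07 (q = 0.735) in clone 1, by the authors' deposited tables. In the RPE1 knockout TNFRSF10A and the decoy receptor TNFRSF10D also rose, at 0.54 and 0.56, by the authors' deposited table. The list held 6 rises and 1 fall among 9 usable genes in the knockout, with TNFRSF1A on chromosome 12 among the rises. It held 2 rises among 6 in clone 1 and 4 rises and 1 fall among 6 in clone 2. Over all usable genes the shares that rose and fell were 26.6% and 26.9%, 9.6% and 9.07%, and 22% and 24.2%. The median log2 fold change of the list was 0.158, 0.218 and 0.379, against -0.00219, -0.00684 and -0.0124 over all usable genes, with no test of the difference.

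Over the 52 genes of the 7 lists besides the 8, 18 rose and 9 fell among 39 usable genes in the RPE1 knockout, 6 rose and 4 fell among 30 in CHP-134 clone 1, and 10 rose and 8 fell among 31 in clone 2. Of the 18 rises in the knockout, 4 lie on chromosome 12, those of APAF1, DIABLO, TNFRSF1A and LPCAT3. The usable genes of that chromosome had a median of 0.504 in the knockout, against -0.0123 elsewhere. The changed shares of the 52 were 69.2%, 33.3% and 58.1%, against 53.6%, 18.7% and 46.2% over all usable genes, with no test of the difference. The DESeq2 q called 0 of 37 in TetOn clone 4 and 0 of 39 in clone 5, where 1.95% and 2.97% of all usable genes were called. The lists were drawn up with earlier results of these data known, and the median log2 fold changes of the 52 were 0.114, 0.0115 and -0.0264 in the comparisons with lowered TRIM37. The direction of the knockout median was thus not shared by clone 2.

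**Figure D4:**
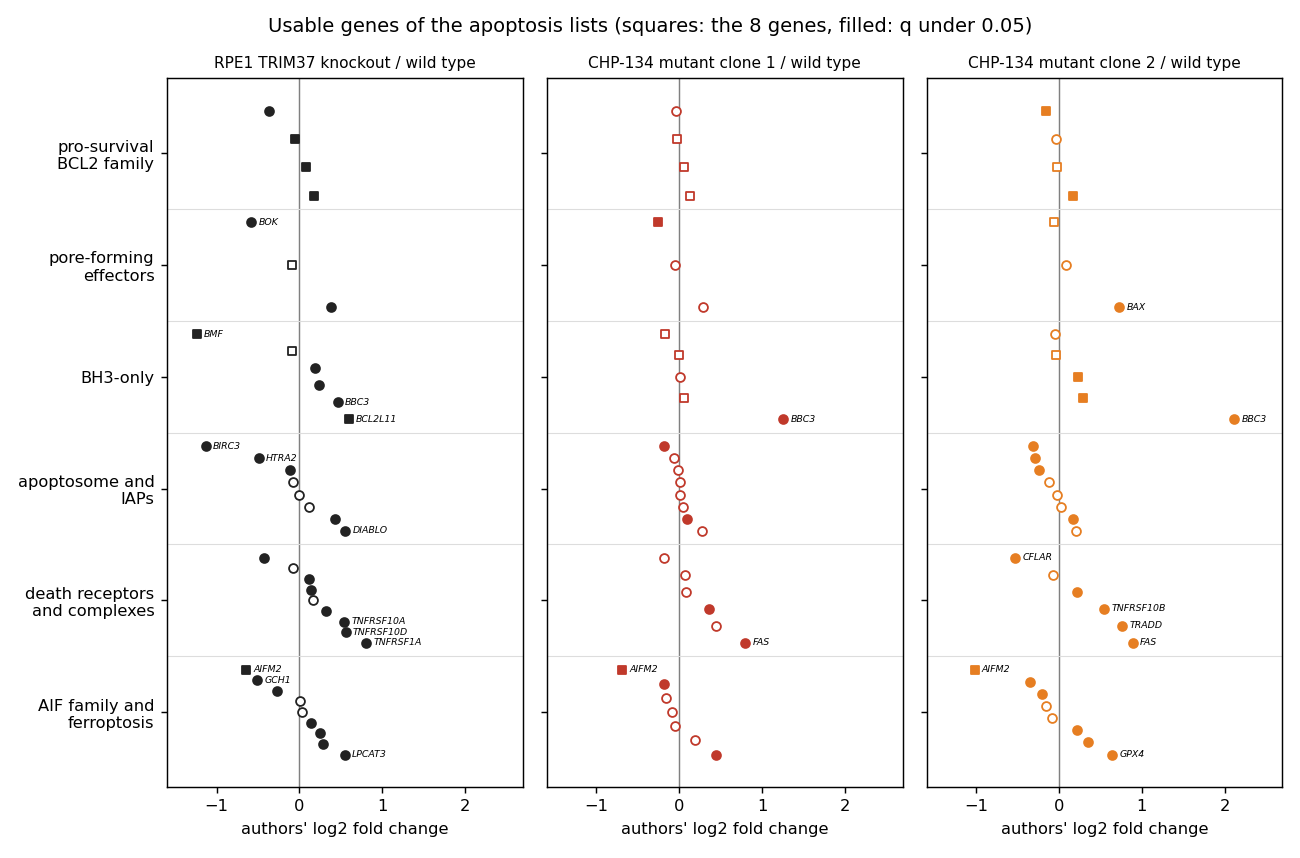
Authors' log2 fold change of each usable gene of 6 lists, the caspases left out, in the 3 comparisons with lowered TRIM37, the 8 genes as squares and filled where q was under 0.05, ordered by value within a list. AIFM2 is the lowest gene of its list in each panel, and BBC3, at 0.46, 1.26 and 2.12, lies to the right in all 3.

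Levels were compared between the 8 genes per kilobase of the longest coding transcript in GENCODE 29. In the RPE1 knockout table BCL2L1 and MCL1 led with mean counts of 2480 and 2460 per kilobase, followed by BID at 485, AIFM2 at 333, BAK1 at 283, BMF at 269, BCL2L11 at 79.1 and BCL2 at 39.3. In the table of CHP-134 clone 1 the order was MCL1 at 2050 per kilobase, BCL2L1 at 751, BID at 681, BAK1 at 242, BCL2L11 at 141, BMF at 88.3, AIFM2 at 53.3 and BCL2 at 17.2. AIFM2 thus stood above BAK1, BMF and BCL2L11 in the RPE1 order and below all of them in the CHP-134 order, while BMF kept its place. By value, only BID and BCL2L11 were higher in the CHP-134 table. Each value is a mean over the wild type and altered libraries of its table, and the tables were normalised separately. The transcript length matters for BMF, which moves from 269 to 1880 per kilobase in the RPE1 table when the median coding transcript is used, and no library values exist here to tell neighbours such as AIFM2, BAK1 and BMF apart.

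Set against CHP-134 wild type, with the median ratio of all genes removed, RPE1 wild type held 5.64 times the AIFM2, 3.69 times the BMF, 3 times the BCL2L1 and 2.06 times the BCL2. MCL1 and BAK1 were near parity at 1.11 and 1.01. BID at 0.684 and BCL2L11 at 0.406 were lower in RPE1. The wild type CHP-134 level could be computed from both clone tables, which share the same wild type libraries. After scaling, the values for the 8 genes differed by between -0.00821 on the log2 scale, for BCL2, and 0.00463, for AIFM2. Such closeness follows from the shared libraries, so it checks the arithmetic and not the ratios between the 2 lines. Between the untreated TetOn clones, BCL2L11 in clone 5 was 0.621 of clone 4, BID 0.783 and BAK1 1.43, so clones of the same construct differed in these genes before induction by more than the fold changes of induction, as values without replicate error.

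The genes most like each of the 8 over the 5 deposited log2 fold changes were taken by Euclidean distance among 10284 genes usable in all 5 tables. Their near values in these comparisons follow from that choice and are no further evidence. For AIFM2 they included FIGN at a distance of 0.218 and MGLL at 0.357. FIGN, which encodes fidgetin, had log2 fold changes of -0.55, -0.58 and -0.86 in the knockout, clone 1 and clone 2, all called in the authors' deposited tables. For BMF they were ALDH1B1 at 0.203, KREMEN1 at 0.204 and ARID5B at 0.233, with log2 fold changes of -1.22, -1.24 and -1.12 in the knockout and not called elsewhere in the authors' deposited tables. For BCL2L11 they were ZFP14, C5orf4 and FMNL3, at 0.109, 0.112 and 0.138. The nearest genes of the others lay closer, at 0.0258 for MCL1 (TTC1) to 0.0772 for BCL2 (THOC3), and these members had small values in every table.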

How the data were processed

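RNA of 39 libraries in 9 groups was sequenced, and the files hold 5 tables by the authors, 1 per comparison. The submitters' processing notes name STAR and DESeq2 without versions. The sources used here do not give the build, annotation, counting rule, strand setting, any shrinkage of fold changes or the scaling of the mean count. Per the file headers, the authors deposited a mean count per gene (a normalised signal of unstated scaling), the log2 fold change with its SE, and a q-value. A Status of Low went with mean counts up to 10.

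From these deposited values, computed here with Python 3.11.15, numpy 2.4.6, scipy 1.17.1 and pandas 2.3.3, came the fold with its 95% normal interval, the level implied in each group by the mean count, the fold and the numbers of libraries, an unadjusted two-sided normal p, and all counts at a q under 0.05. The recomputation of q was tested on simulated data. The plan allowed for counts per library, and since the files hold none, no model was fitted.

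The 8 genes and the gene lists were chosen with earlier results of these data known. Named genes are TRIM37, the 8, CASP2, CASP6, CASP8, CASP9, BAX, BBC3 and PMAIP1, up to 4 called genes per list and comparison with the largest absolute log2 fold change, and the 3 nearest genes of each of the 8. Some genes under this rule are not reported here. Other named genes, the chromosome and neighbour medians, the comparison of control levels, the overlap check and the promoter motifs were chosen after values were seen. Gene order came from RefSeq, which matched 20900 symbols. Genes without a match are absent from the neighbour and chromosome values. Depth per library is unknown, so precision is that of the authors' SE.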

Additional observations from a re-analysis of the deposited data

How the results depend on the processing

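The count of the 8 genes called in the RPE1 knockout, 6, became 3 when a change of at least 1.5-fold was also required and 2, AIFM2 and BMF, when the null was rescaled (SEs multiplied by the central spread of the ratios of fold change to SE), and it stayed between 4 and 6 otherwise. In CHP-134 clone 1 the count of 2 became 1 at a q under 0.01, 1 at 1.5-fold, 0 with the rescaled null and 1 with each chromosome's median removed. In clone 2 the count of 5 became 1, 1, 0 and 2 in the same order. With the rescaled null AIFM2 was not called in either CHP-134 clone, because that spread was 1.84 and 3.08. In both TetOn clones the count was 0 under every setting tried. Over all genes the calls went from 6963, 2388 and 5898 to 1646, 474 and 1508 at 1.5-fold, to 1264, 233 and 253 with the rescaled null, to 5826, 1450 and 4425 at a q under 0.01, and to 6112, 2033 and 4957 with chromosome medians removed. In clone 2 at a q under 0.01 the 8 genes thus went from 5 calls to 1 while all genes went from 5898 to 4425. In the TetOn clones the calls over all genes went from 237 and 362 to 8 and 11 at 1.5-fold, to 141 and 240 at a q under 0.01 and to 156 and 256 with the rescaled null.

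Of 360 values of single genes under these settings, 322 kept direction and call, 31 lost the call and 7 changed sign, all 7 of them uncalled and near 0. With chromosome medians removed, a setting chosen after seeing the data, these were MCL1 and BCL2L11 in clone 1 (0.005 and 0.0276), BCL2 and BAK1 in clone 2 (0.0859 and 0.0256) and BCL2L11 in TetOn clone 5 (-0.00523). With the median of all genes removed they were BCL2L11 in clone 1 (0.00068) and in TetOn clone 5 (-0.00034).

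No paired analysis was possible because the files hold no values per library, so no library was left out in turn and no other normalization was run. Depth per library is unknown, so the limit it sets could not be measured here. Genes of low count had wider SEs. In CHP-134 clone 1 the SE was 0.138 for BCL2 at a mean count of 128 and 0.0532 for BCL2L1 at 1960. The pairs of RPE1 and CHP-134 comparisons differ in the number of libraries, 9 and 3 per group, and so in the size of change their SEs can separate from 0.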
